A study of Mus musculus with 24 samples.

Results

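The comparison described here set B16F10 cells that carry both the Rnf31 and the Atg5 knockout against B16F10 cells that carry the Atg5 knockout alone, both after TNFα. Its libraries were chosen by their labels for genotype and treatment, 3 per group, and so number 6 of the 24 in the study. B16F10 is a mouse melanoma line grown in culture, and the study combined 4 genotypes (control, labelled WT; Rnf31 knockout; Atg5 knockout; double knockout) with TNFα at 2 ng/ml or vehicle for 24 h. Messenger levels were read by RNA sequencing in 3 biological replicates of each of the 8 combinations. Both groups compared carry the Atg5 knockout and both received TNFα, so they differ by label in Rnf31 alone. Whether each genotype was a single clone or a pool of edited cells is not given in the sources used here, and a difference between the lines and the loss of Rnf31 cannot be told apart. In bulk RNA, fewer cells expressing a gene and less RNA per cell cannot be told apart either.

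Rnf31 encodes HOIP, the ubiquitin ligase at the core of LUBAC, a complex it forms with HOIL-1 (Rbck1) and SHARPIN. LUBAC builds linear ubiquitin chains on the TNF receptor signalling complex, which recruit the kinases that activate NF-kB and hold back caspase-8 and RIPK1-driven cell death. ATG5 is part of the conjugation system that attaches LC3 to the growing autophagosome, and cells without it have been widely used as autophagy-deficient cells.

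Total counts of the 6 libraries ran from 19425795 to 31674259. Of 15738 named genes, 13527 passed the low-count filter and were tested with edgeR's quasi-likelihood test, and a gene is called where its Benjamini-Hochberg adjusted p was under 0.05. Levels are in CPM, counts scaled to the size of each library without correction for gene length, and differences are log2 fold changes of the double over the Atg5 knockout with their standard error (SE). One library of each group stood apart: reads on the row without a gene name made up 0.617% of Atg5 knockout replicate 1 and 0.832% of double knockout replicate 3, against 0.0773% to 0.0937% in the other 4, and the level of Lars2 was 497.5 and 628.8 CPM in them against 119.5 to 137.1. Values without these libraries stand beside the results they move. The melanocyte identity of the line was visible in both groups, with a summed pigmentation-gene level of 25290 to 25910 CPM in the Atg5 knockout and 27910 to 28500 in the double knockout. Of the markers of other cell types, 2 of 15 leukocyte, 7 of 14 fibroblast or vessel and 1 of 10 keratinocyte genes were in the table. Their summed levels were 7.321 to 8.515 against 5.373 to 6.351 CPM for leukocytes, 13.17 to 18.21 against 8.595 to 10.24 for fibroblasts and vessels, and 0.415 to 0.8288 against 0.6058 to 0.8707 for keratinocytes; their part in the results was not tested. Dsp, the keratinocyte gene, was not called (0.29), nor was Cd68 (-0.31), and Lyz2 was lower (-0.73) but lost that call without Atg5 knockout replicate 2 or 3 or double knockout replicate 1 or 2 (adjusted p = 0.0874, 0.164, 0.124 and 0.207). The Lyz2 call was also lost without the low-count filter (0.0519), with a replicate block (0.0516) and with a transcript length offset (0.066).

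The targeted genes came first. Rnf31 (chr14:55591708-55603693; coordinates here and below are GENCODE M21 on GRCm38) measured 15.0, 13.4 and 12.9 CPM in the Atg5 knockout and 6.70, 7.12 and 7.38 CPM in the double knockout. The groups did not overlap, and Rnf31 fell by 0.96 ± 0.10 (adjusted p = 1.96e-08). Atg5 was at 23.2, 23.2 and 22.8 CPM against 27.3, 24.9 and 22.4 CPM, overlapping groups with a difference of 0.11 ± 0.08 (adjusted p = 0.298). Both lines lay below the Atg5 level of the control and the Rnf31 knockout under TNFα, which averaged 47.9 ± 1.68 and 42.6 ± 1.42 CPM (SD, n = 3). Rnf31 itself was at 10.5 ± 0.34 CPM in the control and 7.61 ± 0.794 in the Rnf31 knockout.

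Across the transcriptome 5169 genes were called, 38.2% of those tested. Of these, 2538 genes (18.8%) were higher and 2631 (19.4%) were lower in the double knockout, and the median over all genes was -0.008. Changes over 2-fold were mostly downward, with 552 genes (4.08%) lower and 119 (0.88%) higher. In 6640 genes (49.1%) the 3 and 3 libraries did not overlap. Any list described below therefore stands against a background in which nearly 1 gene in 5 moved each way.

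A group of genes read in the Atg5 knockout was at or near zero in the double knockout. Hspb1, a small heat shock protein, measured 9.62, 10.1 and 10.1 CPM in the Atg5 knockout (783 counts in all) and 0 in all 3 double knockout libraries. That is at least 228.8-fold lower, taking a floor of 3 counts over the group. Sytl4, a Rab27 effector of granule secretion (455 against 0 counts), was at least 132.9-fold lower. The membrane protein gene Itm2a (304 against 0) was at least 88.81-fold lower and Lhfpl4 (279 against 0), which encodes a partner of GABA-A receptors, at least 81.51-fold lower. Nr5a1, a steroidogenic nuclear receptor, had 287 counts against 1. Fscn1, which encodes the actin-bundling protein fascin, had 1322 counts against 14, a fold of 82.76 (95% counting interval 49.15 to 151.8). In the control and the Rnf31 knockout under TNFα, Hspb1 averaged 1.98 ± 0.252 and 2.29 ± 0.393 CPM, and Fscn1 2.43 ± 0.234 and 0.666 ± 0.287 CPM (SD, n = 3).

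Setbp1, a gene for a SET-binding nuclear protein, went the other way. It had 0 counts in the Atg5 knockout and 10.5, 10.9 and 12 CPM in the double knockout (760 counts), at least 289-fold higher. After it, the largest rises were those of Stum (2.67 ± 0.20), the interferon-induced Oasl1 (2.50 ± 0.45), the LIM-domain adaptor Lims2 (2.28 ± 0.12) and genes of bone morphogenetic protein (BMP) signalling described below. Ceruloplasmin, the copper-carrying ferroxidase encoded by Cp (chr3:19957054-20009145), fell in all libraries alike: 573, 615 and 564 CPM became 19.2, 18.8 and 17.6 CPM, a difference of -4.97 ± 0.07 (adjusted p = 1.37e-27). Its level in the double knockout lay near that of the control under TNFα, 28.5 ± 0.894 CPM.

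**Figure D1:**
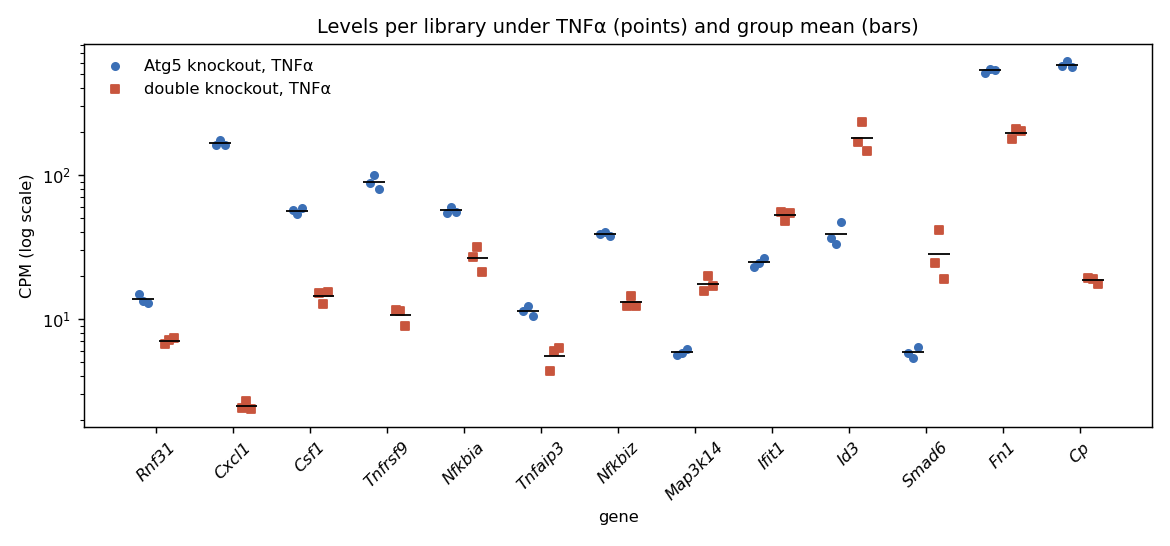
Levels of 13 genes in CPM on a log axis, in each library of the Atg5 knockout (circles) and the double knockout (squares) under TNFα, with a bar at each group mean. For every gene drawn the 3 and 3 libraries are apart; Map3k14, Ifit1, Id3 and Smad6 are higher in the double knockout and the other 9 lower.

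NF-kB target and feedback genes were lower in the double knockout as a group. Of the 20 tested subunits, inhibitors and feedback genes, 13 fell, 3 rose and the median was -0.71, against -0.008 over all genes. Nfkbia, which encodes the inhibitor IκBα and is itself an NF-kB target (chr12:55489410-55492647), was at 54.8, 59.8 and 55.8 CPM in the Atg5 knockout and 27.1, 31.8 and 21.1 CPM in the double knockout. Those groups were well apart, with a difference of -1.09 ± 0.11 (adjusted p = 4.91e-09). Tnfaip3, the gene for the deubiquitinating feedback protein A20, went from 11.3, 12.3 and 10.6 CPM to 4.35, 5.98 and 6.30 CPM (-1.05 ± 0.17, adjusted p = 1.65e-05). Nfkbiz, an atypical IκB that acts in the nucleus, went from 39.0, 40.4 and 37.6 to 12.3, 14.5 and 12.3 CPM (-1.58 ± 0.09). Bcl3, another nuclear IκB, went from 9.76, 11 and 9.18 to 2.46, 2.75 and 1.64 CPM (-2.12 ± 0.21). None of these 4 genes had overlapping groups.

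Tnfaip2 fell by 1.28 (-1.28 ± 0.06), the non-canonical subunit gene Relb by 0.67 (-0.67 ± 0.10) and Birc3, which encodes the ubiquitin ligase cIAP2, by 0.97 (-0.97 ± 0.20). The adhesion molecule gene Icam1 was sparse, with 35 counts against 1. Nfkb2, the p100 precursor gene, measured 60.2, 57.8 and 61.2 against 45.8, 54.5 and 57.2 CPM and was not called (-0.19 ± 0.08, adjusted p = 0.0666). Without double knockout replicate 3 its difference was -0.24 with an adjusted p of 0.0415, and without control replicate 2 with vehicle the adjusted p was 0.0225. It was also called lower with the compared groups fitted alone (adjusted p = 0.038) and with the transcript length offset (0.0311). Map3k14, the gene for the NF-kB-inducing kinase NIK, was 1 of the 3 list members that rose. It went from 5.66, 5.78 and 6.24 CPM to 15.7, 19.9 and 17 CPM, a difference of 1.57 ± 0.12 (adjusted p = 2.32e-11). Under TNFα the control stood near the Atg5 knockout, at 4.54 ± 0.729 CPM of Map3k14 (SD, n = 3). The Rnf31 knockout stood near the double knockout, at 17.6 ± 0.317 CPM.

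Secreted factors, many of them NF-kB targets, went both ways. Cxcl1, a neutrophil-attracting chemokine (chr5:90891241-90893115), was at 161, 176 and 162 CPM in the Atg5 knockout and 2.42, 2.71 and 2.36 CPM in the double knockout, a difference of -6.05 ± 0.11 (adjusted p = 1.99e-25). The control and the Rnf31 knockout under TNFα were at 0.082 ± 0.051 and 0.124 ± 0.0485 CPM, so the Cxcl1 level in the double knockout was between theirs and that of the Atg5 knockout. Csf1, the macrophage growth factor gene (chr3:107741048-107760469), went from 56.9, 53.2 and 58.8 to 15.3, 12.6 and 15.4 CPM (-1.97 ± 0.08), close to the 11.8 ± 1.11 CPM of the control. Lif, a cytokine of the interleukin-6 family, went from 16.3, 15.2 and 12.5 to 5.57, 7.34 and 4.66 CPM (-1.32 ± 0.20). The chemokines for T cells did not follow: Cxcl10 rose slightly, from 61.4, 61.5 and 62.5 to 75.7, 75.0 and 72.3 CPM (0.27 ± 0.07, adjusted p = 0.00179), and Ccl5 was at 35.3, 34.9 and 31.4 against 43.1, 39.0 and 36.6 CPM (0.23 ± 0.10, adjusted p = 0.0888). Ccl5 was called higher with DESeq2 (adjusted p = 0.0379), with the compared groups fitted alone (0.0199) and with the transcript length offset (0.0242). In all, 5 of 13 tested chemokine and cytokine genes fell and 1 rose, with a median of -0.95. The 5 became 3 without Atg5 knockout replicate 2 or without double knockout replicate 3; Il6, with 26 counts against 4, was among those lost (adjusted p = 0.139 and 0.118).

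The promoter windows of 3 of these falling genes are shown because each holds a match to GGGNNTTTC, the first 9 letters of a κB consensus, in capitals, on either strand. They are RefSeq windows on GRCm38.p6, from 250 bases before to 50 bases after the annotated start, written 5′ to 3′ on the strand of the gene. The window of Cxcl1 is chr5:90890995-90891294 (plus strand), with matches that begin 88 and 71 bases before the start. Those of Nfkbia, chr12:55492598-55492897, and Csf1, chr3:107760420-107760719, are on the minus strand. The matches of Nfkbia begin 113 and 28 bases before and 2 bases after the first transcribed base, and that of Csf1 begins 153 bases before the start.
Cxcl1: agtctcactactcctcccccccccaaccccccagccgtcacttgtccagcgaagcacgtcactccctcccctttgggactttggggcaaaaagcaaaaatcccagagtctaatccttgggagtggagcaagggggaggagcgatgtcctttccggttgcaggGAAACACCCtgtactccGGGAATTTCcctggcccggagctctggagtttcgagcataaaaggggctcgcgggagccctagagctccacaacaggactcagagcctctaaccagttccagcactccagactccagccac
Nfkbia: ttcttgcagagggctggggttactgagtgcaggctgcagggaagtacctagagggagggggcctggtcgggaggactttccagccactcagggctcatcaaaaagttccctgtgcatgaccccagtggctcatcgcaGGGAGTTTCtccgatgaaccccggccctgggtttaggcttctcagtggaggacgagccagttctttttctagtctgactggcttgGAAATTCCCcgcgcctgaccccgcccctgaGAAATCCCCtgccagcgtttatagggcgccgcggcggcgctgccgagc
Csf1: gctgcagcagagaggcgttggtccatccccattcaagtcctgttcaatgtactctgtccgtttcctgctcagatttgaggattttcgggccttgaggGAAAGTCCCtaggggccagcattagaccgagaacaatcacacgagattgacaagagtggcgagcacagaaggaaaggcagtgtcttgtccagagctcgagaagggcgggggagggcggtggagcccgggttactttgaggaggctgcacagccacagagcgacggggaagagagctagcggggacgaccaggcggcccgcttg
A match was present in 4.36% of 32851 promoter windows of the same length. It was present in 6 of the 17 NF-kB list members with a window (Rela, Rel, Nfkb2, Nfkbia, Tnfaip3 and Traf3) and in 3 of the 8 chemokine and cytokine genes with one (Cxcl1, Csf1 and Il6). A list member was counted if any of its windows held a match. The list counts are therefore per gene and the 4.36% per window, and they cannot be compared directly. The members with a match include genes that fell, genes that were not called (Rela, Rel and Nfkb2) and Traf3, which rose by 0.51 ± 0.07, so the letters did not divide the list by direction. A match describes the letters of the window and is not a measured binding site.

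At the receptor itself the differences were mostly small. Of 21 genes of LUBAC and the TNF receptor complex, 8 were lower and 0 higher, with a median of -0.14. The 8 include Rnf31 itself, the targeted gene, and Tnfaip3 and Birc3, which were also counted in the NF-kB list. Tnfrsf1a, the main TNF receptor gene, went from 106, 113 and 108 to 85.0, 76.8 and 80.9 CPM (-0.43 ± 0.06, adjusted p = 3.92e-06), and Birc2, which encodes cIAP1, from 35.5, 36.3 and 32.6 to 24.2, 20.4 and 20.6 CPM (-0.68 ± 0.10). The LUBAC partners moved little: Rbck1 averaged 108.7 against 98.92 CPM (-0.14 ± 0.05, adjusted p = 0.0202) and Sharpin differed by -0.15 ± 0.06 (adjusted p = 0.0475). The Rbck1 call was lost without Atg5 knockout replicate 1 (adjusted p = 0.0911) or double knockout replicate 1 or 2 (0.0862 and 0.13), and the Sharpin call was lost without any 1 of the 6 libraries (adjusted p from 0.0513 to 0.191). Both calls were also lost with the transcript length offset (0.0812 and 0.217), and that of Sharpin with DESeq2 (0.0817).

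Genes of extrinsic death were lower where the reported fit called them, and the others were not called. Of 18 tested, 8 were lower, 0 higher and 10 not called, and the median was -0.07. Casp8, the initiator caspase of death receptors, measured 100, 95.2 and 91.7 against 108, 99.6 and 102 CPM (0.11 ± 0.04, adjusted p = 0.0567), Cflar, its inhibitor cFLIP, 126, 129 and 134 against 127, 134 and 130 CPM (0.01 ± 0.05, adjusted p = 0.877), Ripk1 43.0, 44.0 and 42.4 against 44.1, 48.2 and 45 CPM (0.09 ± 0.07, adjusted p = 0.354), and Mlkl, the necroptosis effector, 101, 97.7 and 89.9 against 115, 104 and 99.3 CPM (0.14 ± 0.06, adjusted p = 0.0551). Casp8 and Mlkl passed the threshold without Atg5 knockout replicate 1 (adjusted p = 0.0265 and 0.0378), Casp8 also without double knockout replicate 2 (0.0391) and Mlkl without double knockout replicate 3 (0.0156), and both without control replicate 2 with vehicle (0.0427 and 0.0372). With all libraries kept, both also passed with DESeq2 (0.0262 and 0.0339) and with RLE size factors (0.035 and 0.0386). They did so too without the low-count filter (0.0354 and 0.0336) and with the transcript length offset (0.0134 and 0.00585). Over 16 alternatives the uncalled state held in 8 for Casp8 and in 7 for Mlkl. The members that fell were Gsdmd, a pyroptosis effector (-1.42 ± 0.35), Bid, which links caspase-8 to mitochondria (-0.39), the inhibitor of apoptosis genes and Tnfrsf1a given above, and Zbp1, Casp4 and Gsdme. In the Bcl2 family, 5 of 16 rose and 7 fell (median -0.10): the survival genes Mcl1 (0.30 ± 0.04) and Bcl2l1 (0.34 ± 0.05) and the effector Bak1 (0.26) were higher, and the pro-death genes Bok (-1.96 ± 0.30) and Bbc3 (-0.89 ± 0.12) were lower.

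Interferon-stimulated genes rose as NF-kB targets fell. Of 39 tested, 24 were higher and 4 lower, with a median of 0.49. Ifit1, an antiviral RNA-binding protein, went from 23.1, 24.6 and 26.7 to 55.1, 47.6 and 54.4 CPM (1.08 ± 0.10, adjusted p = 6.4e-10), and Rsad2, which encodes viperin, from 27.7, 29.4 and 26.9 to 64.4, 52.1 and 65.2 CPM (1.11 ± 0.10). Both had groups that were clearly apart. Rtp4 rose by 0.79 ± 0.08 and Ifit2 by 0.62 ± 0.05. Trim25, an E3 ligase of the RIG-I pathway, was an exception: 60.8, 59.7 and 60.2 CPM fell to 11.7, 8.17 and 8.71 CPM (-2.65 ± 0.11, adjusted p = 6.78e-17), beside 10.9 ± 0.726 CPM in the control.

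Of 19 interferon receptors, STATs and IRFs, 4 rose and 7 fell (median -0.06). Irf9, the DNA-binding subunit of the interferon-responsive factor ISGF3, was higher, at 35.4, 40.2 and 37.9 against 57.9, 51.2 and 54.2 CPM (0.52 ± 0.07). The annotated span of Irf9 (chr14:55603571-55610030) overlaps the end of Rnf31, and reads in the shared stretch cannot be assigned with certainty. Irf1, which is both an NF-kB and an interferon-gamma target, was lower, 39.4, 42.3 and 36.7 against 25.4, 23.4 and 23.1 CPM (-0.72 ± 0.07), as were Stat3 (-0.61 ± 0.07), Jak1 (-0.41) and the cytokine feedback inhibitor Socs3 (-1.52 ± 0.14).

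Antigen presentation genes fell more often than they rose. Of 20 genes of MHC class I presentation, 10 fell and 3 rose, with a median of -0.28. The 3 were B2m, Calr and Pdia3, and Calr and Pdia3 are also counted with the endoplasmic reticulum chaperones below. B2m, the shared light chain, rose from 375, 392 and 384 to 494, 485 and 480 CPM (0.34 ± 0.04, adjusted p = 8.8e-07) and the chaperone Calr rose by 0.34. The peptide-loading protein gene Tapbp went from 80.8, 80.3 and 80.0 to 58.8, 55.3 and 60.7 CPM (-0.46 ± 0.05), the proteasome activator gene Psme2 from 103, 109 and 97.2 to 67.1, 62.4 and 58.7 CPM (-0.71 ± 0.07) and the non-classical H2-T23 fell by 1.01 (-1.01 ± 0.14). Psme2 (chr14:55587441-55591113) lies beside Rnf31. Among immune ligands and checkpoints, 6 of 11 fell and 2 rose (median -0.37). Tnfrsf9, the costimulatory receptor 4-1BB and an NF-kB target, went from 87.8, 100 and 80.3 to 11.6, 11.4 and 9.01 CPM (-3.06 ± 0.11, adjusted p = 2.63e-18). Cd274, the gene for PD-L1, went from 6.40, 5.68 and 5.10 to 2.88, 2.93 and 3.07 CPM (-0.95 ± 0.16), and Lgals9 (0.57 ± 0.05) and Cd276 (0.70 ± 0.11) rose.

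The list with the highest median was that of BMP and TGF-beta response, at 0.59, with 11 of 15 members higher and 1 lower. The Id genes, direct BMP targets that block basic helix-loop-helix factors, rose together. Id1 went from 8.43, 10.3 and 9.57 to 34.3, 46.0 and 29.0 CPM (1.94 ± 0.12), Id2 from 63.3, 53.8 and 65.6 to 273, 335 and 229 CPM (2.20 ± 0.10) and Id3 from 36.5, 33.1 and 47.5 to 169, 232 and 146 CPM (2.23 ± 0.12). Double knockout replicate 2 was the highest library for each of these genes, and no group overlapped. Smad6, an inhibitory Smad induced by BMP signals, went from 5.85, 5.39 and 6.40 to 24.5, 41.2 and 19 CPM (2.27 ± 0.20), and Smad9, a BMP-specific Smad, from 1.43, 1.66 and 1.88 to 7.08, 8.74 and 6.40 CPM (2.15 ± 0.17). The window of Smad6 (chr9:64022010-64022309, minus strand) is shown because it was the sole window among the 9 list members with one to hold the Smad element GTCTAGAC, found in 0.213% of all windows; it begins 4 bases before the start.
Smad6: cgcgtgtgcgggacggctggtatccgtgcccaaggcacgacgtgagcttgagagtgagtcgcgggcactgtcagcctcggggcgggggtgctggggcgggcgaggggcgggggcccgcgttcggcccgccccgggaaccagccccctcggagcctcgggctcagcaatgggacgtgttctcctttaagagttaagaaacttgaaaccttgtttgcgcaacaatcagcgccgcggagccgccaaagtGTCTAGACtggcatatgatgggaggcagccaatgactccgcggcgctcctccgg

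Several stress programmes were lower. In the integrated stress response, the programme driven by ATF4 after amino acid or protein-folding stress, 19 of 26 genes fell and 0 rose (median -0.35). Aldh1l2, a mitochondrial folate enzyme, went from 603, 660 and 573 to 285, 312 and 285 CPM (-1.06 ± 0.06, adjusted p = 3.84e-14), the cystine transporter gene Slc7a11 from 19.7, 21.4 and 25.0 to 7.88, 8.39 and 6.71 CPM (-1.52 ± 0.13) and Atf3 from 53, 67.5 and 57.2 to 35.6, 34.6 and 29.96 CPM (-0.83 ± 0.09). Asparagine synthetase (Asns) fell by 0.53 and Atf5 by 0.80 on the same scale. In glycolysis and hypoxia, 21 of 30 genes fell and 1 rose (median -0.24), and 14 fell without the pair of libraries that stood apart. Car9, a hypoxia-induced carbonic anhydrase, went from 55.9, 61.9 and 51.7 to 15.5, 19.7 and 12.3 CPM (-1.83 ± 0.17), Ndrg1 from 252, 272 and 247 to 131, 148 and 119 CPM (-0.96 ± 0.08) and Vegfa from 229, 258 and 209 to 173, 188 and 155 CPM (-0.43 ± 0.09). Of 19 genes in the list of p53 and its targets, 13 fell and 1 rose (median -0.32). The gene that rose was Trp53, which encodes p53 itself (0.35 ± 0.06). Those that fell include Gadd45a (-0.92 ± 0.10), Mdm2 (-0.47 ± 0.05) and Cdkn1a (-0.33 ± 0.06, from 477, 536 and 460 to 385, 420 and 363 CPM). Immediate early genes followed, with 13 of 19 lower and 1 higher (median -0.36), including Ier3, also counted with the NF-kB targets (-0.87 ± 0.10), Junb (-0.50) and Klf2 (-0.92).

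Endoplasmic reticulum chaperones went against the other stress lists: 15 of 19 rose and 1 fell (median 0.25), with Dnajc3 at 0.55, Hyou1 at 0.52 and Creld2 at 0.44. Cell cycle genes rose by small amounts. Of 24 replication genes 19 were higher and 0 lower (median 0.20), and of 24 mitotic genes 17 were higher and 1 lower (median 0.20). Rrm2, the regulated subunit of ribonucleotide reductase, went from 433, 407 and 441 to 656, 668 and 660 CPM (0.63 ± 0.04, adjusted p = 2.02e-13), Cdc20 rose by 0.40 and Cenpe by 0.54. Cyclin D1 (Ccnd1) rose from 180, 167 and 166 to 245, 235 and 253 CPM (0.52 ± 0.06). Cholesterol synthesis had 13 of 24 genes higher and 0 lower (median 0.14), among them Sc5d (0.29), Fdps (0.27) and the sterol sensor gene Insig1 (0.27), and 7 higher without the pair of libraries that stood apart.

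Matrix and dedifferentiation genes, which in melanoma mark a shift away from the melanocytic state, were lower in 17 of 25 and higher in 3 (median -0.50). Fibronectin (Fn1) went from 513, 548 and 535 to 179, 207 and 202 CPM (-1.44 ± 0.07, adjusted p = 1.56e-14) and the receptor tyrosine kinase gene Axl from 70.5, 75.1 and 73.6 to 26.3, 28.5 and 30.3 CPM (-1.37 ± 0.07). Timp1 fell by 1.55 and Itga5 by 0.78 on the log2 scale. Fibroblast and vessel markers, which share Col1a1 with this list, had 3 of 5 tested members lower (Col1a1 -0.92 ± 0.20, Pdgfra -0.98, Pdgfrb -0.69 ± 0.14), and the Pdgfra call was lost without Atg5 knockout replicate 2 or double knockout replicate 2 or 3 (adjusted p = 0.0507, 0.0523 and 0.0547). Pigmentation genes rose in 12 of 20 and fell in 2 (median 0.20), or in 1 without Atg5 knockout replicate 3 or double knockout replicate 2 or 3. Slc45a2, a melanosome transporter gene, went from 372, 367 and 389 to 540, 510 and 542 CPM (0.50 ± 0.04). Mitf, the master regulator of the lineage, was at 408, 388 and 427 against 399, 423 and 385 CPM (-0.02 ± 0.05, adjusted p = 0.788), and its target Trpm1 fell from 85.6, 78.7 and 89.3 to 31.1, 27.3 and 29.8 CPM (-1.52 ± 0.07).

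Autophagy genes fell in 14 of 38 and rose in 2 (median -0.08), in cells that carried the Atg5 knockout in both groups. Map1lc3a (-0.72 ± 0.09) and Gabarapl1 (-0.46 ± 0.04), both of the LC3 family, and the autophagy receptor genes Calcoco1 (-0.59 ± 0.08) and Tax1bp1 (-0.24) were lower, and the lipid transfer gene Atg2b was higher (0.39 ± 0.07). Lysosomal genes split, 7 higher and 8 lower of 27 (median 0.01), and 4 were higher without the pair of libraries that stood apart. Lysosomal acid lipase (Lipa, 0.90 ± 0.06) and galactosylceramidase (Galc, 0.40) rose and Ctsb fell (-0.27). NRF2 targets also split, 9 higher and 10 lower of 23 (median 0.04): the glutathione transferase gene Gsta4 went from 31.4, 28.3 and 27.8 to 0.53, 0.743 and 1.23 CPM (-5.17 ± 0.17) and Nqo1 fell by 1.74, while Gclm (0.72 ± 0.07) and Ftl1 (0.43) rose. Of ERK feedback genes 8 of 19 rose and 5 fell (median 0.16; 3 fell without double knockout replicate 1). None of the 13 mitochondrially encoded transcripts was called by the edgeR test (median 0.10), and 4 were higher without double knockout replicate 3; their summed level was 5490 to 6219 CPM in the Atg5 knockout and 4808 to 6883 CPM in the double knockout.

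**Figure D2:**
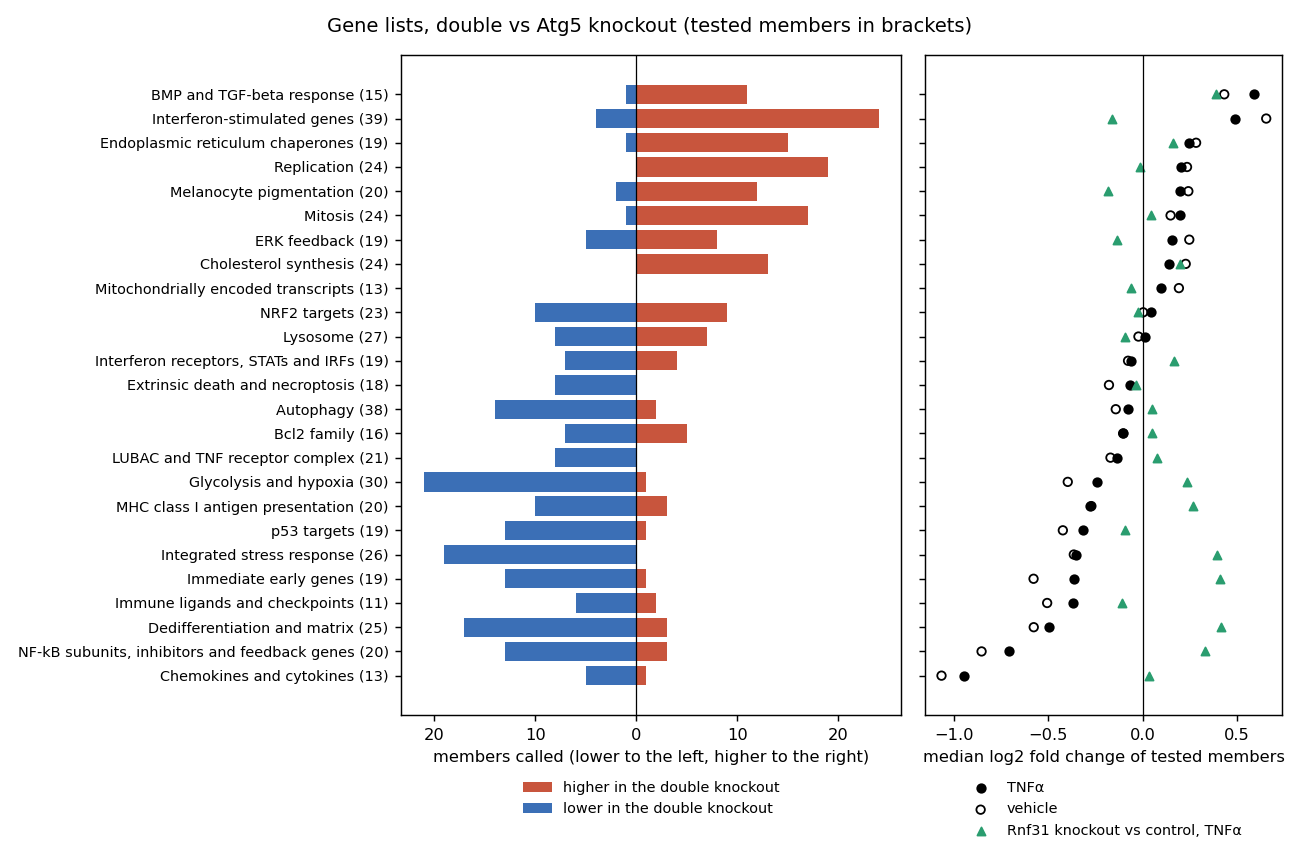
Left, tested members of each gene list that were called higher (right of 0) or lower (left of 0) in the double knockout under TNFα. Right, median log2 fold change of the tested members under TNFα (filled circles), with vehicle (open circles) and for the Rnf31 knockout over the control under TNFα (triangles); the NF-kB list has medians of -0.71, -0.85 and 0.33.

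The same pair of lines with vehicle shows how far the difference between them was also present without TNFα. With vehicle, 5150 genes (38.1%) were called, 2466 higher (18.2%) and 2684 lower (19.8%). The 2 pairs of groups share no library. Of the genes higher under TNFα 1859 were also higher with vehicle (73.2% of the TNFα list and 75.4% of the vehicle list), and of those lower 2033 were also lower (77.3% and 75.7%). In the opposite direction there was 1 gene each way. Of the 5169 genes called under TNFα, 5065 (98%) had the same sign with vehicle, and across the 13527 genes, which are not independent replicates, Pearson's r of the log2 fold changes was 0.766 and Spearman's rho 0.732.

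The difference of the differences (TNFα minus vehicle) was called for 1 gene, 0.00739% of those tested, with 747 (5.52%) at an unadjusted p under 0.05. DESeq2 called 2, with 725 at an unadjusted p under 0.05. The gene in both was Gm26571, an antisense transcript on chr12:83945209-83951355. It was at 3.13, 3.89 and 2.24 CPM in the Atg5 knockout and 1.06, 0.874 and 1.79 CPM in the double knockout under TNFα, and at 1.71, 0.570 and 0.987 against 1.89, 3.59 and 3.54 CPM with vehicle, a difference of -2.79 ± 0.48 (adjusted p = 0.0465). The sources used here do not say whether reads were counted by strand, and its reads and those of the opposite strand cannot be told apart. The call was lost when any 1 of 8 libraries was left out: replicate 2 or 3 of either line with vehicle, or replicate 1 or 2 of either line under TNFα.

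No member of any list passed that test, which does not show that the 2 differences were equal. Cxcl1 differed by -6.05 ± 0.11 under TNFα and -6.04 ± 0.11 with vehicle, Cp by -4.97 and -5.08, and Tnfrsf9 by -3.06 and -3.25. For Nfkbia the values were -1.09 ± 0.11 and -1.50 ± 0.11, a difference of 0.42 ± 0.15 (adjusted p = 0.823), and for Trpm1 -1.52 and -1.19, a difference of -0.33 ± 0.10 (adjusted p = 0.609). The medians with vehicle were -0.85 for the NF-kB list, 0.65 for interferon-stimulated genes and 0.43 for BMP and TGF-beta response. These values compare lines, not the cytokine's own effect: 24 h of TNFα against vehicle called 0 genes by edgeR in the Atg5 knockout (1771, or 13.1%, at an unadjusted p under 0.05; 70 by DESeq2). In the double knockout it called 18 genes (0.133%), 9 higher (0.0665%) and 9 lower (0.0665%), with 1195 (8.83%) at an unadjusted p under 0.05 and 69 by DESeq2.

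**Figure D3:**
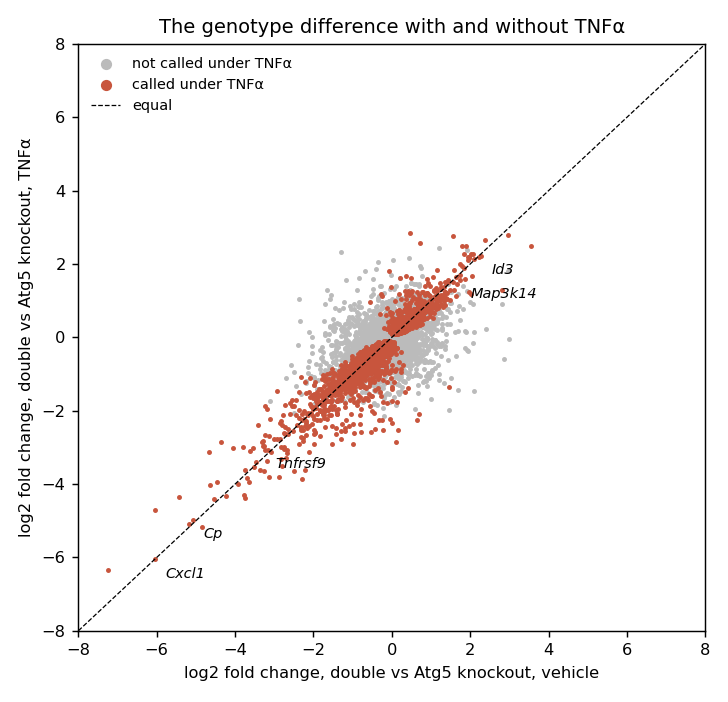
Log2 fold change of the double over the Atg5 knockout under TNFα (y axis) against the same with vehicle (x axis) for the 13423 of 13527 genes with more than 3 counts in each of the 4 groups, with the line of equality; genes called under TNFα are coloured. Cp, Cxcl1, Tnfrsf9, Map3k14 and Id3 lie near the line.

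Whether loss of Rnf31 went with the same changes in the Atg5-intact background was asked with the control and Rnf31 knockout libraries under TNFα. There, 4370 genes (32.3%) were called, 2387 higher (17.6%) and 1983 lower (14.7%), and of them 82 (0.606%) and 66 (0.488%) were over 2-fold. The difference between the 2 contrasts (Atg5 knockout background minus Atg5-intact background) was called for 4102 genes (30.3%), 1888 higher (14%) and 2214 lower (16.4%). Genes higher in both contrasts numbered 805 (31.7% of the 2538 and 33.7% of the 2387) and genes lower in both 523 (19.9% of the 2631 and 26.4% of the 1983). Another 259 were higher in the Atg5 knockout background and lower in the intact one, and 429 the reverse.

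The NF-kB list went in opposite directions in the 2 backgrounds. In the intact background 12 of 20 members were higher and 0 lower after Rnf31 loss (median 0.33), and the difference between backgrounds was called lower for 15 members and higher for 0 (median -1.06). Nfkbia rose from 10.6 ± 1.45 to 16.8 ± 1.09 CPM (SD, n = 3; 0.65 ± 0.12) in the intact background, and the difference between backgrounds was -1.74 ± 0.16 (adjusted p = 3.91e-09). For Nfkbiz it was -2.04 ± 0.15 and for Csf1 -2.39 ± 0.12 (adjusted p = 2.04e-14). The integrated stress response showed the same reversal, with 18 of 26 members higher and 2 lower in the intact background (median 0.39) and a difference called lower for 22 and higher for 0. In glycolysis and hypoxia 18 of 30 were higher and 1 lower, with a difference called lower for 24. Fn1 rose from 58.5 ± 4.50 to 99.8 ± 9.27 CPM (0.77 ± 0.08) in the intact background, and its difference was -2.21 ± 0.11; Axl rose from 13.9 ± 1.76 to 24.2 ± 0.193 CPM (0.79 ± 0.08), with a difference of -2.15 ± 0.10.

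Interferon-stimulated genes leaned the other way in the intact background, where 3 of 39 were higher, 10 lower and 26 not called (median -0.16). The difference between backgrounds was called higher for 18 and lower for 2. Ifit1 fell from 7.55 ± 0.649 to 3.70 ± 0.571 CPM in the intact background (-1.02 ± 0.14), and its difference was 2.09 ± 0.17 (adjusted p = 1.6e-10). Of the replication genes, 1 of 24 was higher, 9 lower and 14 not called in the intact background. Their median there was -0.012, against 0.026 over all genes, and the difference was called higher for 17. BMP and TGF-beta response genes rose in both backgrounds, 11 of 15 and 9 of 15, and the difference between backgrounds was called higher for 7 members and lower for 1. Id3 rose by 2.23 ± 0.12 and 0.85 ± 0.11, a difference of 1.38 ± 0.16 (adjusted p = 3.35e-07). Cholesterol synthesis also rose in both (13 and 15 of 24). For Timp3, an inhibitor of metalloproteinases, 48.1, 47.2 and 47.8 CPM became 7.57, 7.12 and 8.30 CPM in the Atg5 knockout background, while the intact pair was at 13.9 ± 1.22 and 13.7 ± 1.36 CPM. The serine protease gene Prss23 behaved alike, 110, 116 and 107 against 16.9, 21.7 and 16.4 CPM, with 17.3 ± 0.954 and 17.8 ± 1.88 CPM in the intact pair.

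A small set of genes moved the same way in all 4 pairs that differ in Rnf31 (with and without Atg5, with and without TNFα), which together use all 24 libraries and share none. Of the genes tested, 481 (3.56%) were called higher in all 4 and 340 (2.51%) lower in all 4. Fitted values were over 2-fold in each pair for 17 genes, picked out after their values were seen, among them Setbp1, Stum, Smad6, Smad9, Arhgef5, Ephb2, Map3k14 and Fgfr3 higher, and Itm2a, Fscn1, Ccdc80, Carmil2, Cul9, Eva1a, Fam81a and Pla2g5 lower. Setbp1, Itm2a, Cul9 and Pla2g5 had 3 or fewer counts in at least 1 group, so their sizes in the 4 pairs are not given. Stum, Map3k14 and Fgfr3 gave similar sizes in both backgrounds under TNFα: 2.67 ± 0.20 and 2.38 ± 0.23 for Stum, 1.57 ± 0.12 and 1.94 ± 0.12 for Map3k14, and 1.29 ± 0.11 and 1.41 ± 0.11 for the growth factor receptor gene Fgfr3, with adjusted p of 0.541, 0.0926 and 0.61 for the difference. Fscn1 differed in size, -6.34 ± 0.26 in the Atg5 knockout background and -1.83 ± 0.24 in the intact one (adjusted p = 4.11e-09 for the difference).

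**Figure D4:**
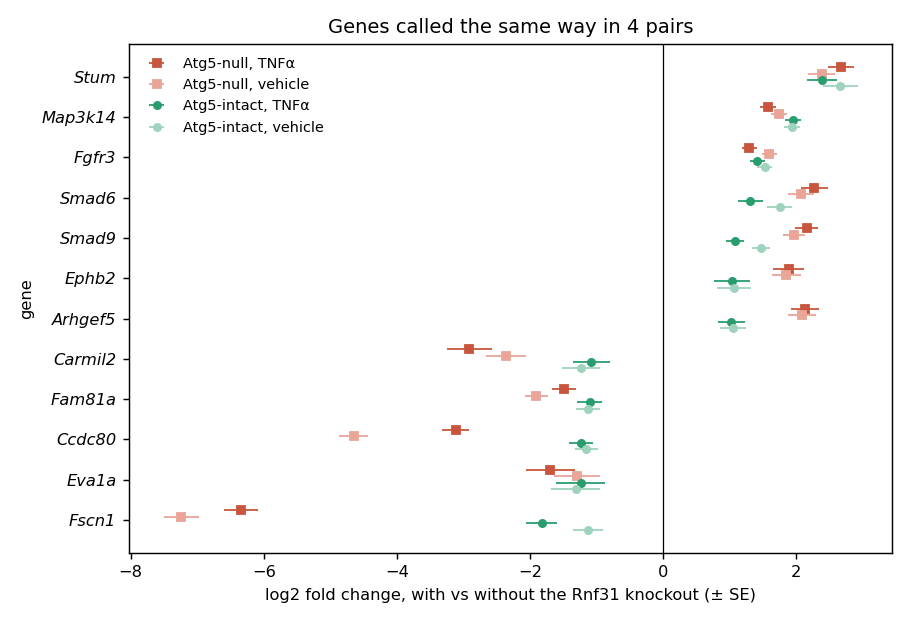
Log2 fold change (± SE) with against without the Rnf31 knockout for genes over 2-fold in the same direction in all 4 pairs, those named in the text with more than 3 counts in each of the 8 groups; squares, Atg5 knockout background; circles, Atg5-intact background; dark, TNFα; light, vehicle. Fscn1 lies further from 0 in the Atg5 knockout background than in the intact one, and Stum, Map3k14 and Fgfr3 at similar values in both.

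The position of the called genes was uneven. On chromosome 6, 38.9% of 699 tested genes were lower and 6.72% higher, with a median of -0.167 under TNFα and -0.183 with vehicle, against 0.012 for the Rnf31 knockout over the control. The lower median held along its length, from -0.139 to -0.18 in windows of 30 Mb. On the X chromosome 26.4% of 420 genes were lower, and in the window from 120 to 180 Mb 67 of 135 were lower and 3 higher (median -0.254), against 0.076 in the first 60 Mb. Chromosome 13 leaned the other way, with 23.7% higher and 9.9% lower (median 0.086). The whole X chromosome had a median of -0.063. Chromosomes 10 and 15 had lower medians than that, -0.088 (23.6% lower, 13.7% higher) and -0.078 (26.7% lower, 12.8% higher). Chromosome 3 had 29.8% higher and 19.7% lower (median 0.057). Windows were taken along chromosome 6 and the X chromosome only. DNA copy number was not measured in these libraries and its part was not tested. The genes named above that lie on chromosome 6 include Tnfrsf1a, Mitf and Lhfpl4. Those on the X chromosome include Itm2a, at chrX:107397099-107403376, and Sytl4, at chrX:133936385-133981812.

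**Figure D5:**
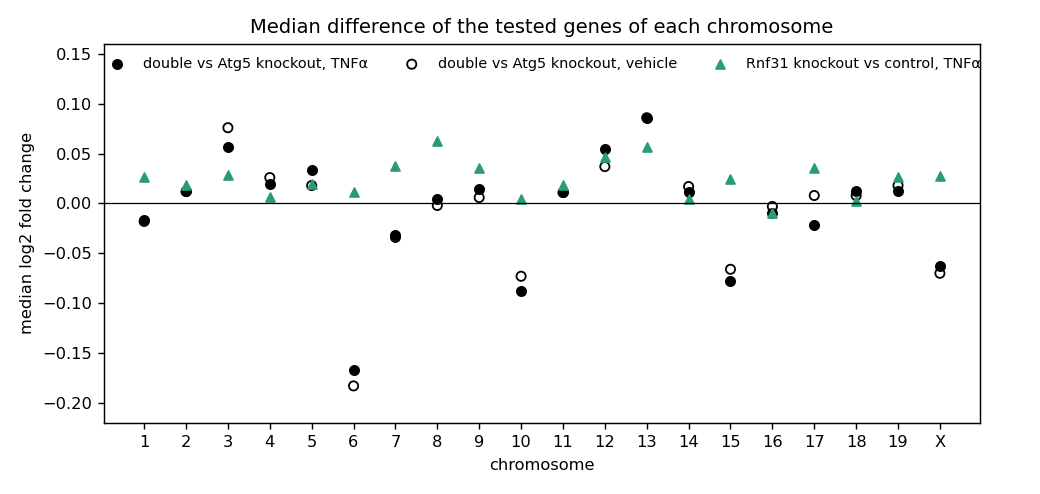
Median log2 fold change of the tested genes of each chromosome for the double over the Atg5 knockout under TNFα (filled circles) and with vehicle (open circles), and for the Rnf31 knockout over the control under TNFα (triangles). Chromosome 6 is lowest in both comparisons of the double knockout, at -0.167 and -0.183, and at 0.012 in the third.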

How the data were processed

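RNA of cultured B16F10 cells was sequenced, 3 biological replicates in each of 8 groups. The authors deposited one table of expected counts per gene for all 24 libraries; the submitters' processing notes name RSEM, STAR and DESeq2, with GRCm38 and mm10 as builds and no versions. All 24 sample columns were used. All values were whole, so rounding changed 0 of them. The row without a gene name entered neither library sizes nor tests, and held 0.14% of the counts on average. Totals over named genes ran from 19425795 to 33385502 per library.

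Counts were normalised by TMM and filtered with filterByExpr (2211 genes removed) and fitted with edgeR 4.0.16 (limma 3.58.1, R 4.3.3) by the quasi-likelihood test over all 24 libraries in 8 groups. P-values were adjusted by Benjamini-Hochberg over 13527 genes and called under 0.05. The SE of a log2 fold change is its size divided by the square root of the F statistic. The coefficient of variation between replicates was 6.17%. DESeq2 1.42.0 was an alternative. P-values measure the spread between the labelled replicates, which may come from parallel wells of one line. Within the groups compared, counts of replicates differed by more than sampling noise (chi-square per degree of freedom 3.81 to 9.04). Outside them, control replicate 2 with vehicle stood apart, at 32.1 and 20.2 against replicates 1 and 3. It enters the shared estimate of the spread and the 4 pairs that differ in Rnf31. Without it, 2805 genes were higher and 2808 lower under TNFα. Counting intervals (95%) and floors of 3 counts cover counting error only. The difference tests share libraries with the comparison they qualify. Of the table's rows, 23 equal another row.

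Genes named are Rnf31, Atg5 and a set chosen by name; the 14 largest called changes each way whose libraries do not overlap and where 1 group reaches 2 CPM, predicted genes and pseudogenes skipped; up to 5 called members of each of 28 lists by adjusted p; and the 10 leading genes of each difference test. Zbp1, Casp4, Gsdme, Cd68, Dsp, Traf3, Rela, Rel, Trp53 and Pdia3 were named after their values were seen, as were the genes shared by all 4 pairs. The members and lists were chosen with earlier results of these data known. GENCODE M21 coordinates matched 13325 tested genes. The count model was tested on simulated data. The reported fit has no replicate block. Alternatives were a replicate block, size factors, filters, robust estimation, fitting the compared groups alone, a transcript length offset and leaving out libraries. Values of 5 genes that met the rule are not reported here.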

Additional observations from a re-analysis of the deposited data

Results flagged for a closer look

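The difference of the Rnf31-loss contrast between the Atg5 knockout and the Atg5-intact background under TNFα passed the edgeR test in 4102 genes. The 10 leading named ones, as the difference in log2 fold change, were Cp at -5.22, Mbp at -4.37, Cdsn at -4.91, Timp3 at -2.63, Prss23 at -2.63, Csf1 at -2.39, Fn1 at -2.21 and Axl at -2.16, all lower in the Atg5 knockout background, and Car6 at 1.81 and Mcoln3 at 1.47, higher there. Mbp, the myelin basic protein gene, fell from 21.3, 21.3 and 19.9 to 1.10, 0.874 and 1.13 CPM in the Atg5 knockout background, and was at 15.5 ± 1.33 and 15.9 ± 1.41 CPM (SD, n = 3) in the intact pair. Cdsn, a gene of skin adhesion, moved in opposite directions, by -3.37 and 1.54. Mcoln3, a lysosomal cation channel gene, and Car6, a secreted carbonic anhydrase gene, also moved in opposite directions, Mcoln3 by 1.14 and -0.34 and Car6 by 1.36 and -0.45.

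The genotype difference itself differed between TNFα and vehicle in 1 gene, Gm26571, by -2.79 on the log2 scale.

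Reads on the row without a gene name, which no comparison used, were 0.617% of the library of Atg5 knockout replicate 1 under TNFα and 0.832% of that of double knockout replicate 3 under TNFα, against 0.0612% to 0.163% in the other 22 libraries.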

How the results depend on the processing

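Over the alternatives other than leaving out 1 library at a time, genes higher in the double knockout under TNFα numbered 1859 to 2754 and genes lower 2012 to 2694, against 2538 and 2631; the lowest counts came from leaving out both libraries with a high share of unnamed reads, an alternative chosen after seeing the data. Leaving out 1 library at a time gave 1955 to 2805 higher and 2093 to 2808 lower. The count of genes whose genotype difference differed between TNFα and vehicle, 1, was 2 without the low-count filter, 2 with DESeq2, 2 when the compared groups alone were fitted, 0 with a mean of at least 1 CPM and 0 without both libraries with a high share of unnamed reads. It ran from 0 to 3 when 1 library was left out, the 3 without control replicate 2 with vehicle. That fit held 1 library fewer but tested 13717 genes against 13527. The cause of these differences was not tested.

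With the replicate number as a block the counts were 2614 higher and 2677 lower under TNFα, and 2 for that difference. Same-numbered libraries of the groups compared did not deviate together (correlations -0.045, 0.038 and -0.016), and differently numbered ones ran from -0.077 to 0.086. With 3 libraries per group, these values cannot show whether the number also marks a pairing.

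Of 178 named genes, 1215 of 1246 values with 1 library left out kept their side of the threshold, with the same direction where called. Under the other alternatives 1562 of 1593 did. Direction was not compared where neither fit called the gene, and some such genes changed sign. Mitf, for example, ran from -0.057 to 0.024. Lars2, 0.25 and not called (adjusted p = 0.685), was the sole gene to change direction with a call. It was -0.92 (adjusted p = 0.0447) without double knockout replicate 3 and 1.23 (adjusted p = 0.0186) without Atg5 knockout replicate 1. The single member that went against its list among chaperones, mitotic, glycolytic and immediate early genes became 0 when some 1 or 2 libraries were left out. For genes with 3 or fewer counts in a group, depth limits what can be said of the size of a difference.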
